A study of Homo sapiens with 9 samples.

Results

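The transcripts described are those of MDA-MB-231 cells that had received a control small interfering RNA (siRNA) against luciferase, a firefly enzyme that human cells do not encode, 72 h before RNA was taken. They were chosen by label, and the 3 arrays of this group, named Luc replicates 1 to 3, were described out of 9 arrays in the series. The other arrays carry RNA of the same line after siRNA against KDM5A, a histone H3 lysine 4 demethylase, and no comparison with them is made. All 9 samples share the cell line, the transfection and the 72 h interval. The labels do not say whether the 3 control samples came from separate cultures, so the spread between them may be technical. No untransfected sample was analysed here, so the values belong to transfected cells.

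MDA-MB-231 is an established human breast cancer line that grew from a pleural effusion and is one line, not a panel of tumours. It is widely used as a model of breast cancer that lacks the oestrogen and progesterone receptors, has no amplification of ERBB2, and has moved from an epithelial towards a mesenchymal state. Epithelial cells hold each other through cadherins, claudins and desmosomes and fill their cytoplasm with keratins, whereas mesenchymal cells carry vimentin and switch such junctions off through repressors of the SNAI, ZEB and TWIST families. In the mammary gland, luminal cells carry the hormone receptors and simple keratins, and basal cells carry KRT5, KRT14 and smooth muscle proteins.

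Each array held 48799 probes, and every probe came with a signal intensity and a detection p-value, which places the signal against negative-control beads of the same array. A probe was called detected when this p was under 0.05 on all 3 arrays and not detected when it was over 0.05 on all 3, and mixed otherwise. The p moved in steps of 1 in 759, and a listed p of 0 means that no control bead was as bright. Of the 48799 probes, 15679 (32.1%) passed on Luc replicate 1, 16100 on replicate 2 and 17538 (35.9%) on replicate 3. The lowest intensity that passed was 134.8, 140.6 and 129.6 on the same arrays, against highest intensities of 42293, 47949 and 46243, and the number of arrays limits the precision. Pearson correlations between arrays, taken across detected probes, were 0.986 to 0.989, and no pair of arrays held the same values.

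At gene level, 9017 of 18850 genes (47.8%) were detected, 6927 (36.7%) were not detected on any array, and 2906 (15.4%) were mixed. A gene counted as detected when any of its probes was, and as not detected only when all were. Probes without a single gene symbol passed far less often, 1681 of 20705 (8.1%) against 11429 of 28094 (40.7%) with one. Signal is given below as the background-corrected, quantile-normalized log2 value of the gene's brightest probe, so an undetected gene sits near 4.5 to 5. A rank is a rank of probe signal, which also depends on how well each probe binds, and is not a rank of transcript number. "Not detected" means that the signal was within that of the negative controls, and a transcript at a low level could give the same reading. So could a probe that binds its transcript poorly: RPL3 had a probe at 14.07 and an undetected one at 4.89. A gene read by 1 probe is called not detected on that probe alone.

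Replicate arrays differed little for bright genes and more for dim ones. Over 9005 genes the median SD between arrays was 0.162 on the log2 scale. It was 0.255 for genes with a mean below 7, 0.159 between 8 and 9, and 0.104 at 13 and above. The widest spread belonged to dim genes: SNRNP48, a protein of the minor spliceosome, read 6.70, 5.67 and 7.54 on Luc replicates 1 to 3. MTARC2, a mitochondrial reductase, read 5.37, 6.65 and 7.01. CLTC, the clathrin heavy chain, read 7.43, 7.02 and 5.94, so Luc replicate 3 was low for CLTC and high for the other pair. The other 7 of the 10 genes with the largest SD (CNOT6L, USE1, ZNF655, CST9, RANBP6, AIFM1 and PYM1) had SDs from 0.74 to 0.85.

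**Figure D1:**
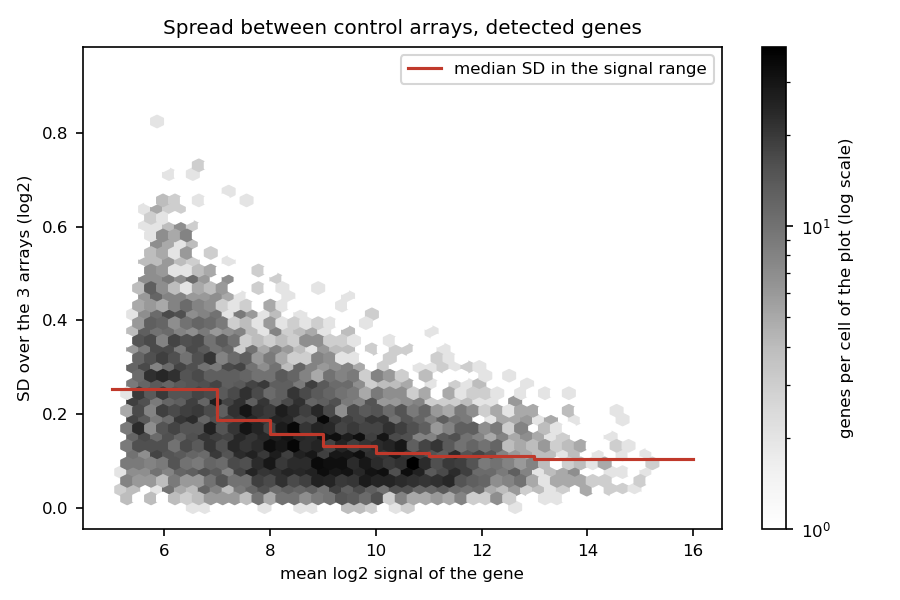
Spread between the 3 control arrays for each detected gene, with the mean log2 signal on the horizontal axis, the SD over arrays on the vertical axis, and shading for the number of genes. The line is the median SD in each signal range, which falls from 0.255 among the dimmest genes to 0.104 among the brightest.

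Genes at the threshold show how narrow the line between the states is. ASB11, BCAN and BCR were just inside, each with a highest detection p of 0.0487. Just outside were CAPN15, G2E3 and PELI3, whose highest p was 0.0501 and which are counted as mixed. In all 6 genes the deciding value was that of Luc replicate 2, with intensities between 140.2 and 141.1.

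The brightest genes were mostly those of protein synthesis. Of the 25 genes of highest signal, 18 encoded cytosolic ribosomal proteins, and so did 29 of the top 50, 38 of the top 100 and 46 of the top 200. First in rank was FTL, the ferritin light chain that stores iron, at 15.29, 15.38 and 15.36 on Luc replicates 1 to 3. EEF1A1, which brings aminoacyl-tRNA to the ribosome, followed at 15.28, 15.27 and 15.45. RPL6, a protein of the large ribosomal subunit, read 15.47, 15.27 and 15.22. These 3 genes overlapped between arrays, so their order within the first places is not resolved. The remaining non-ribosomal genes among the 25 included TMSB4X, which binds monomeric actin, TPT1, the translationally controlled tumour protein, and ACTG1, a cytoplasmic actin. The others were EIF4A1, an RNA helicase of translation initiation, and UBB, a ubiquitin gene.

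**Figure D2:**
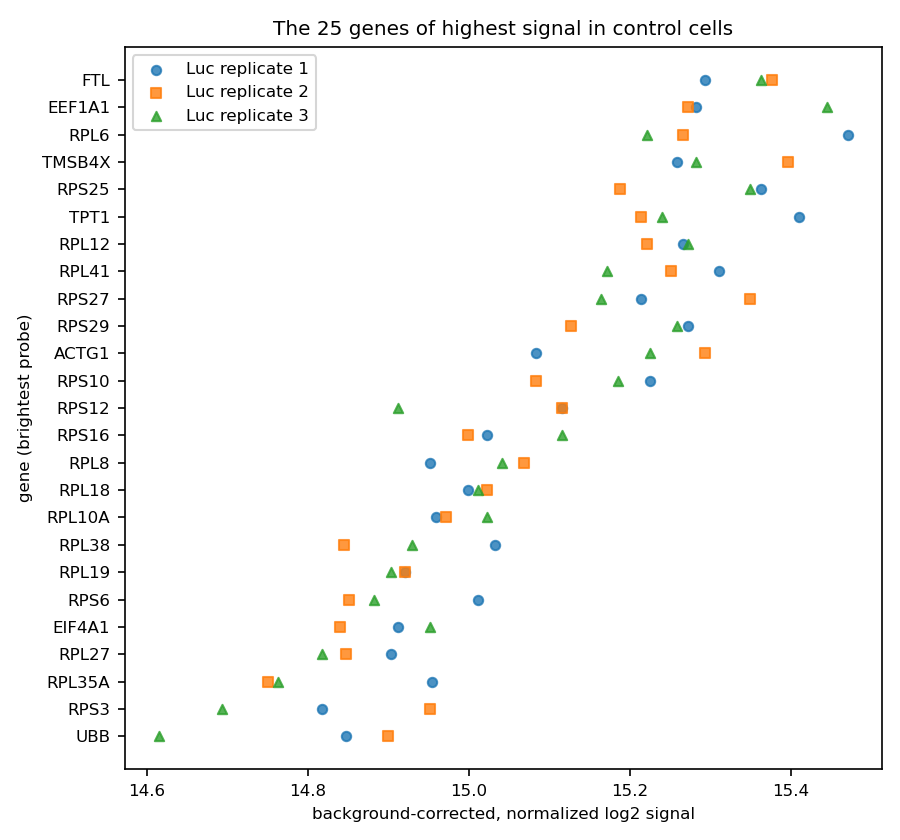
Background-corrected, normalized log2 signal of the 25 genes of highest mean signal in control cells, 1 point per array. The means run from 15.34 (FTL) to 14.79 (UBB), and the points of neighbouring genes overlap.

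The ribosome as a whole was detected nearly completely: 68 of 69 listed genes passed, with a median of 14.06 against 8.39 over all detected genes. Their signals ran from 8.72 (RPL36A) to 15.32 (RPL6). The exception, RPL10, read 5.06, 4.51 and 4.57, and neither of its 2 probes was detected. RPL3 showed how far probes of 1 ribosomal gene can disagree, with a detected probe at 14.07 and another not detected at 4.89. Ribosomal genes have many processed pseudogenes of near-identical sequence, so a probe for one may also read the other, and 2 ribosomal pseudogenes were themselves among the top 50. When each gene was given the mean of its detected probes in place of its brightest one, 16 of the 25 highest genes were the same.

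Outside the ribosome, the top 200 held genes of many kinds, among them the cytoskeleton, glycolysis, adhesion, translation and cell respiration. Of the last, COX7C ranked 62, ATP5F1B 68 and COX4I1 77. The genes that follow were named from the lists described below and do not sum up the top ranks. VIM, the vimentin filament of mesenchymal cells, ranked 52 and GAPDH ranked 43. AXL, a receptor tyrosine kinase, ranked 93, CAV1, the coat protein of caveolae, 140, CCND1, a G1 cyclin, 162, and CD44, a hyaluronan receptor, 179. TIMP1, an inhibitor of metalloproteinases, ranked 181 and BCL2L1, which encodes the survival protein BCL-XL, ranked 195.

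Listed genes were read in 54 groups that hold 1197 genes, of which 1108 had a probe. Of these 1108, 486 were detected, 194 were mixed and 428 were not detected. The shares differed by kind of list, against 47.8% detected over all genes: 27.2% of lineage marker entries, 42.2% of receptors and their ligands, 22.8% of gene family entries and 66.4% of pathway entries. The lists overlap, with 62 genes in more than 1. Each count below is to be read against 47.8% detected and 36.7% not detected over all genes. A share near these sets no list apart.

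**Figure D3:**
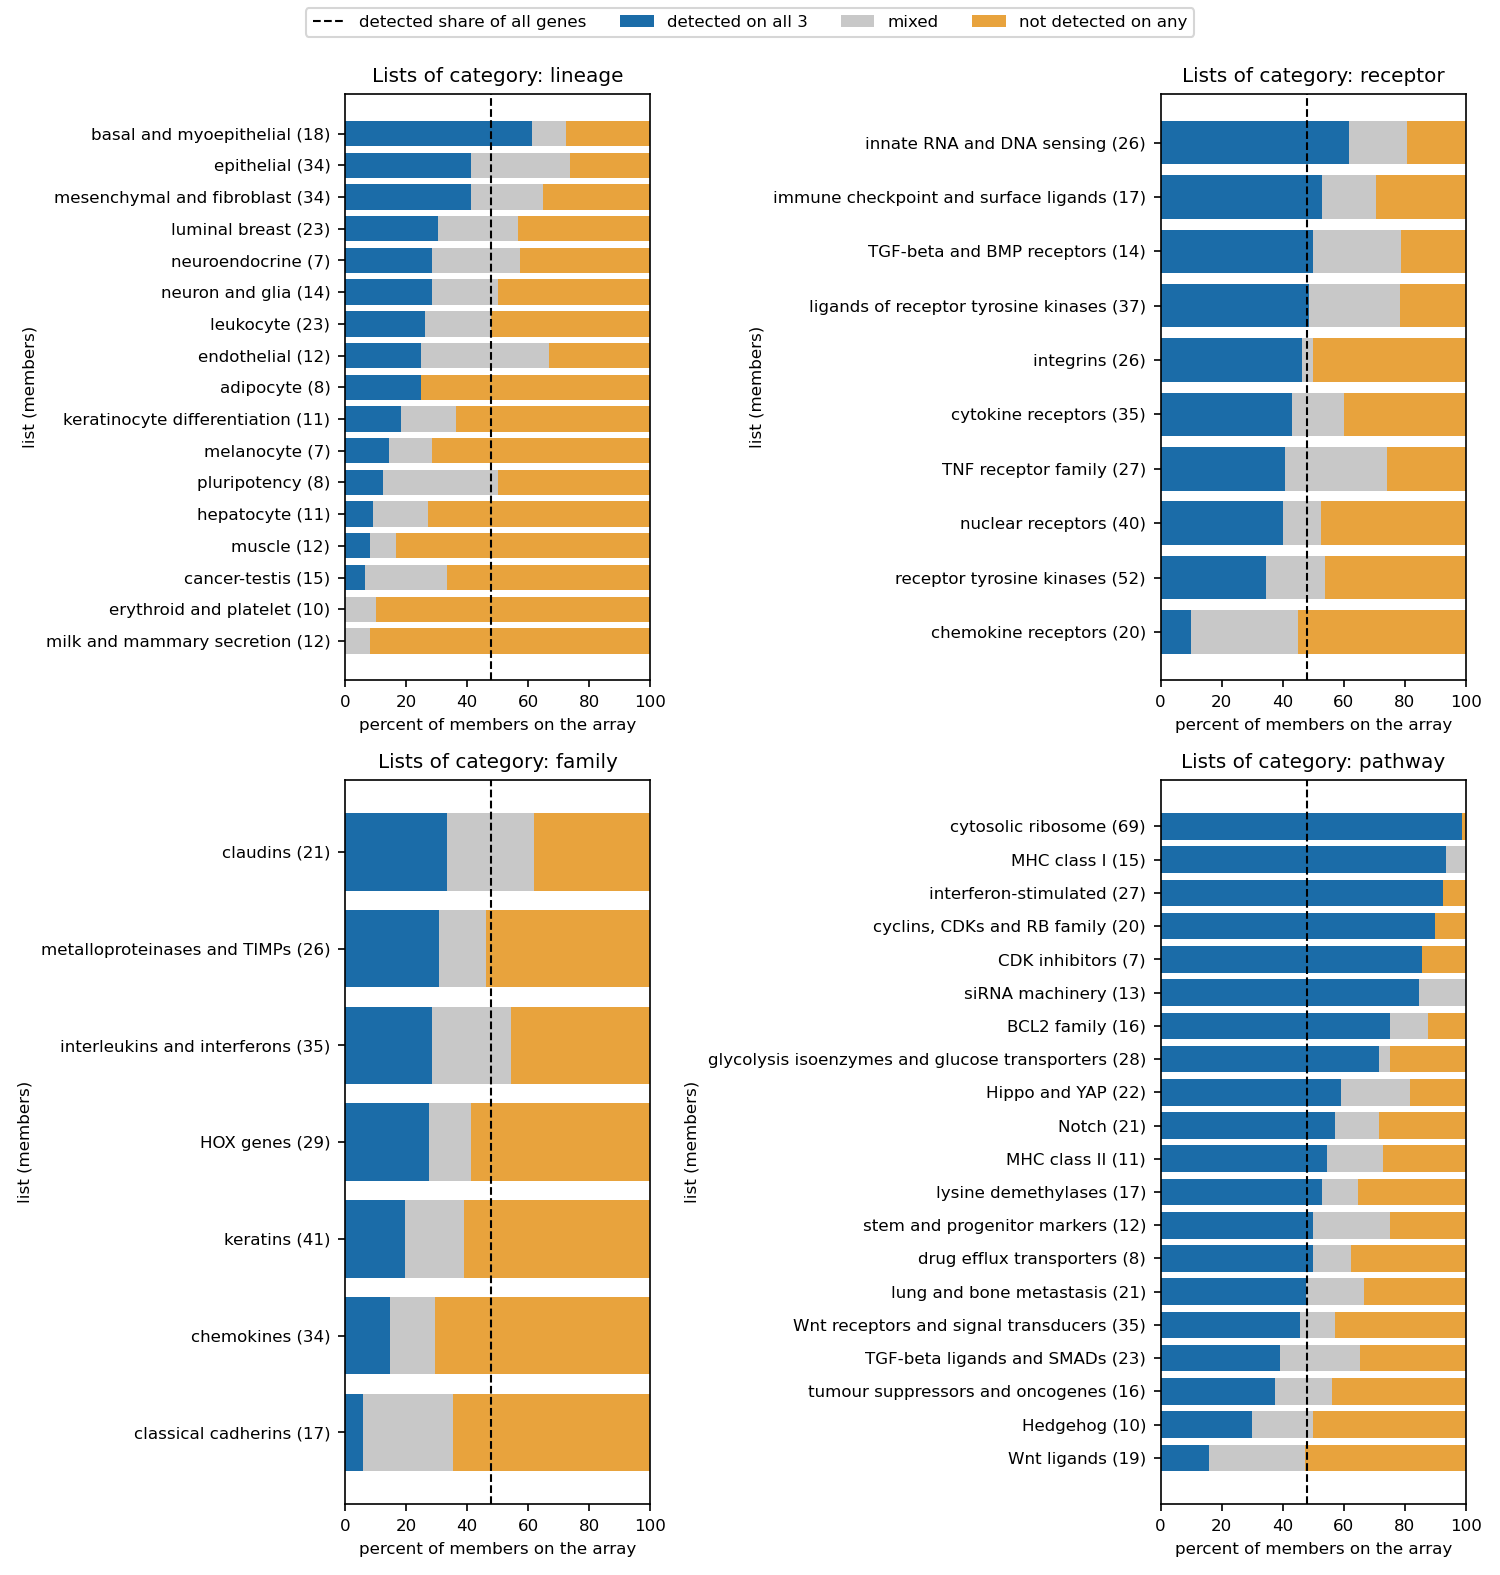
Share of each list's members on the array that were detected on all 3 control arrays, mixed, or not detected on any, by category of list, with the number of members in brackets. The dashed line marks the 47.8% of all genes that were detected; ribosomal, MHC class I and interferon-stimulated genes lie far above it and the milk and erythroid lists, at 0%, far below.

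Of 34 mesenchymal and fibroblast genes on the array, 14 (41.2%) were detected and 12 were not, near the shares of all genes. VIM read 14.25, 14.29 and 14.55 on Luc replicates 1 to 3, AXL 13.91, 13.94 and 13.83, and CD44 13.36, 13.37 and 13.08. S100A4, a calcium-binding protein of motile cells, averaged 12.55 ± 0.17 (SD, n = 3) and TGFBI, a secreted adhesion protein induced by TGF-beta, 12.03 ± 0.11 (SD, n = 3). These 5 were named as the brightest of the list, so their ranks, between 52 and 551 of 18850, follow from that choice. The median of the list's detected genes was 9.42, against 8.39 over all detected genes.

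Among the repressors that silence epithelial genes, SNAI2 was detected at 8.34 ± 0.13 and TWIST1 at 6.65 ± 0.28 (SD, n = 3). ZEB1 and ZEB2 were detected at low signal, with ZEB1 at 5.53, 6.27 and 5.62 and ZEB2 at 6.51, 5.47 and 5.72, so different arrays were highest for each. SNAI1 and TWIST2 were not detected. N-cadherin, CDH2, was mixed: it passed on Luc replicates 2 and 3 (p of 0.029 and 0.0185) and not on replicate 1 (0.219). Fibronectin, FN1, was mixed through 1 of its 3 probes on Luc replicate 3 alone. Among the matrix genes of fibroblasts, COL1A1, COL1A2, COL3A1, SPARC, FBN1, LUM and POSTN were not detected, nor were the fibroblast surface markers THY1 and FAP. The list's other matrix genes, COL5A1, COL6A1, COL6A2 and DCN, were each detected or mixed, so its collagens were not all undetected. The collagen cross-linking enzyme LOX and the receptor PDGFRA (6.20) were detected, and LOXL2 was not.

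Of 34 epithelial genes on the array, 14 (41.2%) were detected, the same share as in the mesenchymal list. A further 11 were mixed and 9 (26.5%) were not detected. Over all genes 47.8% were detected and 36.7% were not. SPINT2, a membrane-bound protease inhibitor, read 12.10, 12.13 and 12.42, KRT7, a simple keratin, 10.35, 10.45 and 10.83, and EPCAM, an adhesion molecule of epithelia, 9.71, 9.46 and 9.62. The tight junction genes CLDN1 (9.40) and TJP1 (9.06) and the desmosome genes DSG2 (8.41), PKP2 (7.98) and DSP (7.42) were also detected. CDH1, which encodes E-cadherin, read 4.81, 4.57 and 5.09, and passed only on Luc replicate 3 at a p of 0.0435. CDH1 was therefore mixed, and without Luc replicate 3 it was not detected. Not detected on any array were CLDN3, OCLN, the epithelial splicing factors ESRP1 and ESRP2, the transcription factors GRHL2, OVOL1 and OVOL2, the protease PRSS8 and the desmosomal PKP1.

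Hormone receptor genes of the luminal lineage were at the level of the negative controls. Of 23 luminal genes 7 (30.4%) were detected and 10 were not. ESR1, the oestrogen receptor, read 4.96, 4.65 and 4.59 with detection p-values of 0.124, 0.435 and 0.544. PGR, the progesterone receptor and a textbook oestrogen target, read 4.55, 4.48 and 4.55, with p from 0.618 to 0.841. FOXA1, the pioneer factor of the oestrogen receptor, read 4.71, 4.64 and 4.56, and the secreted TFF1 and TFF3 were not detected either. GATA3, another luminal factor, was mixed at 5.26, 5.01 and 5.01 and passed on Luc replicate 1 alone (p of 0.0422). Each of ESR1, PGR, FOXA1 and GATA3 was read by 1 probe.

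The luminal genes that were detected were mostly structural or metabolic. XBP1, a transcription factor of the secretory pathway, averaged 12.40 ± 0.10, KRT19 10.84 ± 0.12 and CA12, a carbonic anhydrase, 10.63 ± 0.03 (SD, n = 3). KRT8 averaged 9.22 ± 0.15 and its partner KRT18 7.89 ± 0.02. BCL2 (7.76) and MUC1 (5.90) made up the 7.

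Of 18 basal and myoepithelial genes 11 (61.1%) were detected, and the basal keratins KRT5 and KRT14 were not among them. CAV1 read 13.58, 13.54 and 13.50, LAMB3, a laminin chain of the basement membrane, averaged 11.12 ± 0.15 (SD, n = 3), and EGFR read 9.38, 9.60 and 9.71. The basement membrane receptors ITGB4 (8.64) and ITGA6 (8.24) and the contractile genes TAGLN (8.21), ACTA2 (7.66) and MYLK (5.80) were detected. KRT5 read 4.38, 4.68 and 4.55 and KRT14 4.44, 4.84 and 4.63. Also not detected were CNN1, CDH3 and MME. Across the whole keratin family 8 of 41 genes (19.5%) were detected: KRT80 at 11.28, KRT10, KRT19, KRT7, KRT8, KRT18, KRT34 and KRT23 at 5.59.

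**Figure D4:**
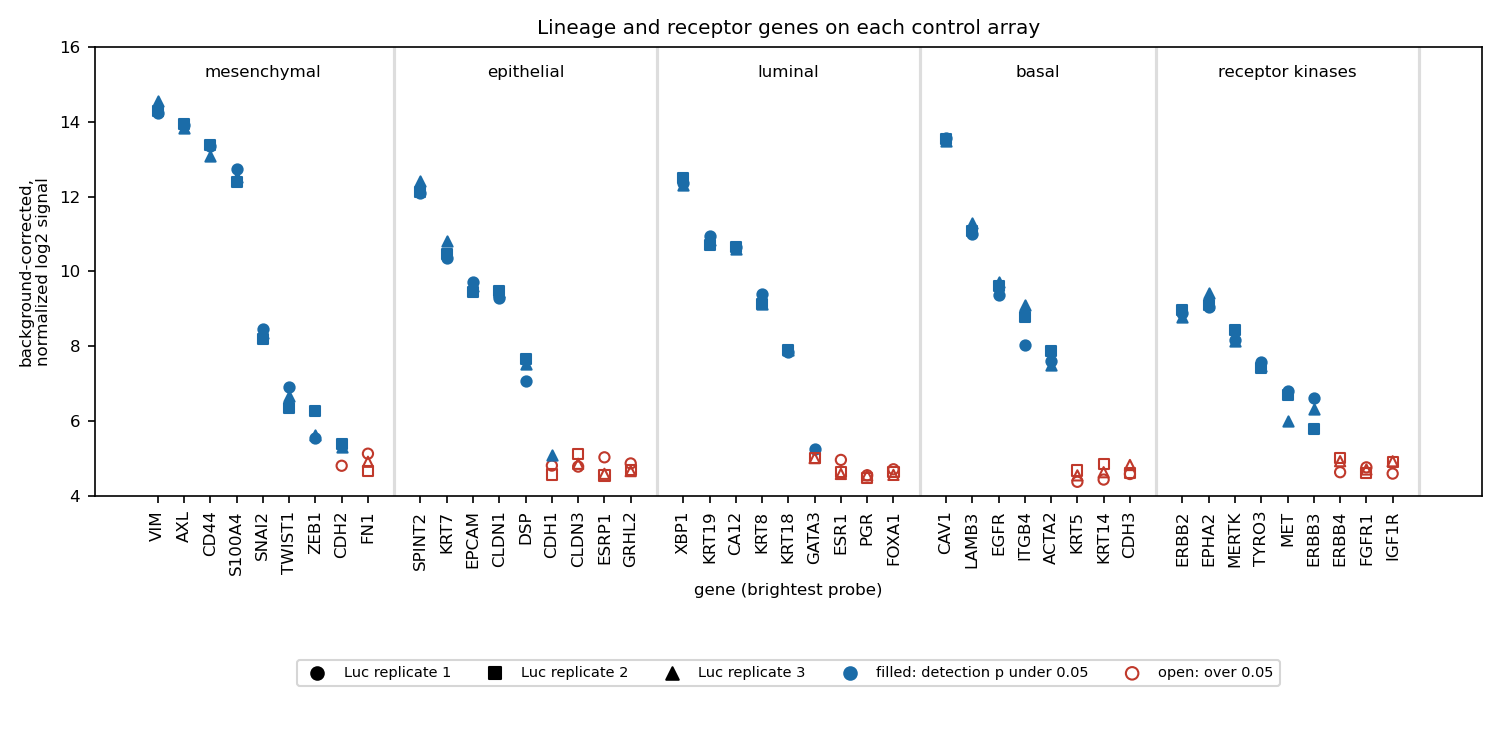
Background-corrected, normalized log2 signal of 44 lineage and receptor genes on each control array, filled where the detection p was under 0.05 and open where it was over. VIM, AXL and CAV1 lie above 13 on every array, while ESR1, PGR, FOXA1, KRT5 and KRT14 stay near 4.5 to 5 with open symbols.

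No gene of milk and mammary secretion was detected out of 12, and 11 were not detected on any array, among them the caseins CSN2, CSN3 and CSN1S1 and LALBA. LTF, lactoferrin, was mixed, at 5.41, 5.10 and 4.64, and passed on Luc replicate 1 alone. The erythroid and platelet list likewise had 0 of 10 detected, with HBB, HBA2, GATA1 and KLF1 among the 9 not detected.

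Among 23 leukocyte genes 6 (26.1%) were detected and 12 were not. PTPRC, the pan-leukocyte phosphatase CD45, was not detected on any of its 4 probes, and CD3E, CD3D, CD4, MS4A1, ITGAM and SPI1 were not detected either. The detected ones included LCP1, an actin-bundling protein, at 11.05 ± 0.14 and CD68, a lysosomal glycoprotein, at 10.83 ± 0.07 (SD, n = 3). The other 4 were LAPTM5, a lysosomal membrane protein, at 8.20, the T-cell coreceptor CD8A at 6.39, the monocyte marker CD14 at 6.32 and CSF1R, a macrophage growth factor receptor, at 5.62. MBP, myelin basic protein, was detected on all 3 of its probes, with the brightest at 12.16, 12.47 and 12.50, and TUBB3 (9.57), GAD1 (6.73) and STMN2 (5.42) were the other detected genes of the neuron and glia list, 4 of 14 (28.6%). GFAP, OLIG2, S100B and SYP were not detected. SERPINA1, alpha-1-antitrypsin, was the 1 hepatocyte gene of 11 detected, at 9.62, and ALB, APOA1 and TTR were not. Muscle gave 1 of 12 (TNNT1, 7.42), melanocyte 1 of 7 (MITF, 5.64), pluripotency 1 of 8 (KLF4, 9.58) and cancer-testis 1 of 15 (PRAME, 5.61). Without Luc replicate 1 the hepatocyte, melanocyte and pluripotency lists had 2 detected members each, and at a detection threshold of 0.01 the melanocyte and cancer-testis lists had 0.

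Endothelial genes were 3 of 12, with the adhesion molecules ESAM at 10.04 and PECAM1 at 5.84 and the secreted EGFL7 at 6.35 detected, and CDH5, TEK, CLDN5 and EMCN not. Adipocyte genes were 2 of 8, PPARG and CFD, with ADIPOQ, FABP4, PLIN1 and LEP not detected. Of the keratinocyte differentiation genes KRT10 (10.84) and SFN (7.88) were detected out of 11, and IVL, LORICRIN, FLG and KRT1 were not.

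The states were then set against the sequence around the transcription start, because promoters rich in CpG dinucleotides are known to belong mostly to genes active in many tissues and promoters with a TATA box often to tissue-restricted ones. The window ran from 250 bases before to 50 bases from the start in RefSeq on build GRCh38.p14, and matched 14053 of 16691 protein-coding genes (84.2%). Shown for comparison are 2 genes of the top ranks, RPS25 and GAPDH, with VIM and KRT8 as detected filament genes and CSN2, PTPRC and FOXA1 as undetected markers of milk, leukocytes and luminal cells. All 7 have 1 listed start, and each window is printed 5′ to 3′ on the strand of the gene with its CG dinucleotides in capitals.
RPS25: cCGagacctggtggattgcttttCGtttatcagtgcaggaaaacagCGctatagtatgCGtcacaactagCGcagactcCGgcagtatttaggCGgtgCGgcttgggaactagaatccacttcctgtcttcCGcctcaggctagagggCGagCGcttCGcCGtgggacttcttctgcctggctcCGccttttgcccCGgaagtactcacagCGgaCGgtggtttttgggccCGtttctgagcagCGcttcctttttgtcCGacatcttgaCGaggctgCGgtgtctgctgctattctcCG
GAPDH: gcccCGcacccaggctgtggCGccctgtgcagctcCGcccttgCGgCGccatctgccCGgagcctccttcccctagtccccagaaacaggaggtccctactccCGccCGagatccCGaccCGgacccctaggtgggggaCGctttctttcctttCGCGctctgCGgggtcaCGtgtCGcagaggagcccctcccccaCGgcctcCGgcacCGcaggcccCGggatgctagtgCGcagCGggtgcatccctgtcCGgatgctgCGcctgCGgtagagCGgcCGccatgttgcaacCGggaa
VIM: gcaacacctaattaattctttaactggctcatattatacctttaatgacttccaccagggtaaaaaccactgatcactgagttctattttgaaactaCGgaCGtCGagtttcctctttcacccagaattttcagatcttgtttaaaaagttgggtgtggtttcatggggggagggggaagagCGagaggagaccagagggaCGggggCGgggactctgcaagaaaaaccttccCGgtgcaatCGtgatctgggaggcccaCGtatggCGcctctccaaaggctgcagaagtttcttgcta
CSN2: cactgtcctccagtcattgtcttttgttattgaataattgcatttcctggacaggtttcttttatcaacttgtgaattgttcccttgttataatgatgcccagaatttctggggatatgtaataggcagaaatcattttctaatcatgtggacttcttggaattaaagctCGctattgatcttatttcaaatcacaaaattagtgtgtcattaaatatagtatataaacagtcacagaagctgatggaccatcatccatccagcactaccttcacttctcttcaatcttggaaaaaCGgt
PTPRC: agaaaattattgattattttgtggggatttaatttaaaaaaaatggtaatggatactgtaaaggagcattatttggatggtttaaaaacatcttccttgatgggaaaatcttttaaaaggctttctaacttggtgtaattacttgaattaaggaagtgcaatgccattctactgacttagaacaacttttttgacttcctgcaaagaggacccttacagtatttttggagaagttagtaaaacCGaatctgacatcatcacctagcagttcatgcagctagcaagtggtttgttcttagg
FOXA1: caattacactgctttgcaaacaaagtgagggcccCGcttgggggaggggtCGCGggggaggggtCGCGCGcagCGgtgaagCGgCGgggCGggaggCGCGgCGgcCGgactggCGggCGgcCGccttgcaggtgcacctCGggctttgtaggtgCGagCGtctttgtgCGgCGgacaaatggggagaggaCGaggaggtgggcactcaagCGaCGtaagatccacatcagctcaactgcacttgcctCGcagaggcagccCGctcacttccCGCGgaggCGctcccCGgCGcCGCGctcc
KRT8: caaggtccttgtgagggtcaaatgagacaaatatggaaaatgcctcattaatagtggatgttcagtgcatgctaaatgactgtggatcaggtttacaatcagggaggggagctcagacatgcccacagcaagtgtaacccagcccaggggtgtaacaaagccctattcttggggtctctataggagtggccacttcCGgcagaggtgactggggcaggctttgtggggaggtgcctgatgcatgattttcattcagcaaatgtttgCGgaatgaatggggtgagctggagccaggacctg

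These windows lie, in GRCh38.p14, for RPS25 at chr11:119018294-119018593 on the minus strand, GAPDH at chr12:6535014-6535313 on the plus strand, VIM at chr10:17227991-17228290 on the plus strand, CSN2 at chr4:69965679-69965978 on the minus strand, PTPRC at chr1:198638790-198639089 on the plus strand, FOXA1 at chr14:37595200-37595499 on the minus strand and KRT8 at chr12:52926420-52926719 on the minus strand. The RPS25 window held 23 CG dinucleotides, an observed over expected ratio of 0.955, and that of GAPDH 28, a ratio of 0.761. By contrast, the windows of CSN2 and PTPRC held 2 and 1, with ratios of 0.216 and 0.122. FOXA1 and KRT8 go against this order at their listed starts: FOXA1, not detected, held 34 (0.966), and KRT8, detected at 9.22, held 2 (0.111). Whether the 1 listed start of a gene is the one used in these cells was not tested. VIM, of rank 52, lay between at 10 (0.584). The letters TATAAA stood in the 50 bases before the start of CSN2 and in none of the other 6 windows.

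Over all matched genes, detected genes had a median CpG ratio of 0.832, mixed genes 0.653 and undetected genes 0.466. A ratio over 0.6 was found in 83.9% of detected, 54.2% of mixed and 40.4% of undetected genes. Read the other way, 8.3% of the 1487 genes with a ratio below 0.2 were detected, and 75.4% of the 1477 genes with a ratio of 1.0 and above. Among detected genes the ratio moved little with signal, from 0.785 in the dimmest of 5 equal signal groups to 0.853 in the brightest. Genes with 1 listed start gave 0.868 for detected and 0.433 for undetected genes. These are descriptions across genes of 1 cell line, the genes are not independent of each other, and the match to a window was more complete for detected (87.6%) than for undetected genes (80.3%).

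**Figure D5:**
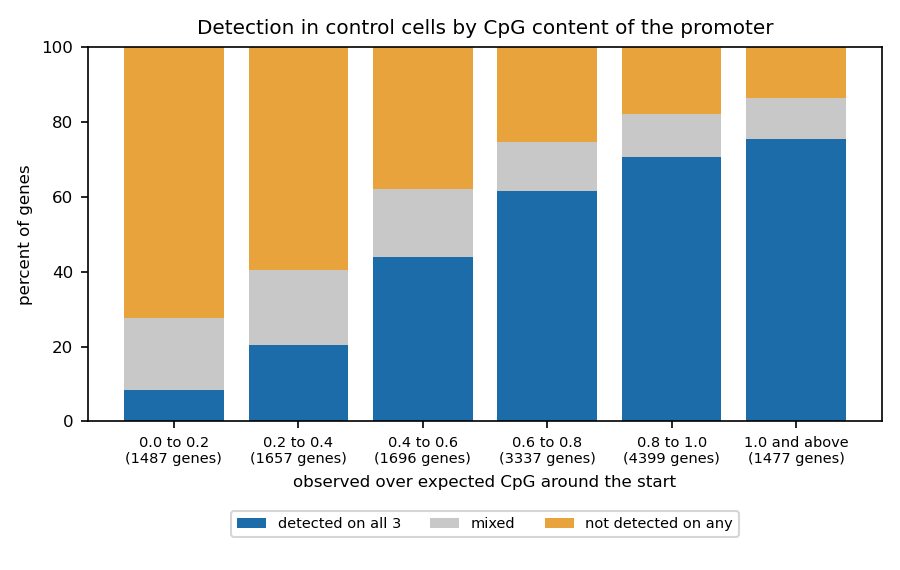
Share of protein-coding genes that were detected, mixed or not detected in control cells, by the observed over expected CpG ratio in the 300 bases around the start. The detected share rises from 8.3% below a ratio of 0.2 to 75.4% at 1.0 and above.

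The TATA motif was read in the same windows. A percentage given for a motif is the mean over genes of the share of a gene's listed starts that held it. TATAAA on the strand of the gene, in the 50 bases before the start, averaged 3.87% over all genes, 1.76% over detected and 7.04% over undetected ones. It did not fall steadily with signal: among detected genes it averaged 2.19% in the dimmest of the 5 signal groups, 0.83% in the middle one and 2.84% in the brightest. Over the 82 of the 100 highest genes that had a window it averaged 6.1%. The same letters on the opposite strand, TTTATA, averaged 0.82% over all genes. Of 491 genes with TATAAA before every listed start 60.9% were not detected, against 31.2% of 13428 with it before none. Ribosomal protein genes stood out in another feature, a C at the start followed by 4 pyrimidines, which transcripts under mTOR-controlled translation are known to carry. It averaged 69.8% over 59 ribosomal protein genes and 4.6% over all genes. Among the 100 highest genes, 82 had a window and the feature averaged 41.2% over these, but 38 of the 100 are the ribosomal genes themselves. RPS25 above has it, and the other 6 printed windows do not. A match is a description of letters and was not tested as a site.

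Receptor tyrosine kinases, which pass growth signals from outside the cell, were detected for 18 of 52 genes (34.6%), and 24 were not. AXL was the brightest by probe signal, and its relatives MERTK (8.24) and TYRO3 (7.49) were also detected, as were their ligands GAS6 and PROS1. GAS6 read 12.53, 12.80 and 13.11 and PROS1 10.48, 10.38 and 10.25. The receptors and ligands of this family were thus all above background on every array.

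Within the EGF receptor family, EGFR averaged 9.57 ± 0.17 and ERBB2 8.88 ± 0.08, ERBB3 read 6.63, 5.80 and 6.32, and ERBB4 was not detected (4.63, 5.00 and 4.93). EGFR was read by 4 probes, ERBB2 by 3 and ERBB3 by 3, and in each case 1 of them was detected on all arrays. EGFR ligands were present as HBEGF (9.74, 9.85 and 9.98), TGFA (9.86, 9.59 and 9.83) and EREG (5.77, 6.33 and 5.11), with EGF itself not detected. NRG1, a ligand of ERBB3 and ERBB4, was at 6.32. MET, the receptor of hepatocyte growth factor, read 6.80, 6.69 and 6.00, so Luc replicate 3 was lowest, and its ligand HGF was mixed.

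Other kinases detected were RYK (10.77), EPHA2 (9.19), DDR1 (8.54), EPHB4 (8.42), MUSK (7.62), PTK7 (7.43), ROR1 (7.22), MST1R (6.38), PDGFRA (6.20), CSF1R (5.62) and KIT (5.56). IGF1R read 4.60, 4.90 and 4.93 and was not detected, and FGFR1, FGFR2, RET, ALK, FLT3 and TEK were not detected either. Of the 37 ligands on the array 18 (48.6%) were detected, among them VEGFB (12.71), EFNB2 (9.99), VEGFA (9.96) and BDNF (9.52), whereas IGF1, IGF2, FGF7 and FGF10 were not.

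Nuclear receptors, transcription factors that bind hormones and lipids, were detected for 16 of 40 genes (40.0%). PPARG, the fatty acid sensor of adipocytes, was brightest at 10.46, 10.54 and 10.52. RARA (10.13) and the partners RXRA (9.85) and RXRB (9.28) were detected, while RARG and RXRG were not. NR3C1, the glucocorticoid receptor, read 7.54, 7.72 and 7.25. VDR, the vitamin D receptor, read 4.71, 4.76 and 4.58 and was not detected, nor were ESR2, THRB and PPARA.

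For TGF-beta signalling the type II receptor gene TGFBR2 read 11.54, 11.90 and 11.85, and the type I receptor gene TGFBR1, on its single probe, 4.56, 4.79 and 4.69. TGFBR1 was not detected on any array, so the pair that binds TGF-beta was not seen as a pair. In all, 7 of 14 receptor genes were detected, the other 6 being ACVR1 (9.55), BMPR2 (9.07), TGFBR3 (8.48), ACVR1B (8.42), ACVR2A (7.84) and BAMBI (6.62), a decoy receptor. Among ligands and SMADs 9 of 23 (39.1%) were detected, with SMAD3 at 9.96, SMAD4 at 9.92 and TGFB2 at 6.85. TGFB1, on 1 probe, was not detected (4.68, 5.11 and 4.55).

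Cytokine receptors were detected for 15 of 35 genes (42.9%), near the 47.8% of all genes. IFNGR2 averaged 12.15 ± 0.07 and IL6ST, the shared signal chain of IL-6 type cytokines, 10.58 ± 0.07 (SD, n = 3). Both chains of the type I interferon receptor passed, IFNAR1 at 7.91, 8.03 and 7.58 and IFNAR2 at 7.43, 7.79 and 7.88. The lymphoid chains IL2RA, IL2RG and IL7R, and LIFR, GHR and IL13RA2, were not detected.

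Of the TNF receptor family 11 of 27 genes (40.7%) were detected: they included TNFRSF21 (12.02), TNFRSF1A (11.18), TNFRSF12A (11.02), LTBR (10.29) and the TRAIL receptors TNFRSF10B (10.37) and TNFRSF10A (9.02). FAS, another death receptor, read 4.72, 4.58 and 4.68 on 1 probe and was not detected. Chemokine receptors were detected for 2 of 20 genes, CCR6 and CXCR5. CXCR4, the receptor of CXCL12, was mixed at 4.55, 4.45 and 5.10, with 1 of its 3 probes passing on Luc replicate 3 alone (p of 0.0435). At a detection threshold of 0.01, 1 chemokine receptor was detected.

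The CCR6 signal rested on 1 of 3 probes. That probe read 12.74, 13.08 and 13.08, and the other 2 averaged 4.90 and 4.89 and were not detected. Such disagreement was common: of 3505 detected genes with more than 1 probe, 1482 (42.3%) had another probe that was not detected on any array. TMSB4X, EPCAM, CDKN1A, PPARG, NRG1 and KDM5B, given elsewhere by their brightest probe, were among these. ITGB1 had detected probes at 13.80 and 12.07 and undetected ones at 4.67 and 4.56. HK1 had a probe at 12.50, one at 5.72 and 2 undetected. CLEC2D and ITIH5, named after their values were seen, reached 14.23 and 13.57 on their brightest probe, and ITIH5 had 4 other probes, none of them detected. Whether such probes read different transcripts of a gene, or another gene, was not tested.

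Integrins, which tie the cell to its matrix, were detected for 12 of 26 genes (46.2%), near the 47.8% of all genes. The common beta 1 subunit ITGB1 read 13.85, 13.74 and 13.81 and its partner ITGA3, a laminin receptor subunit, 12.74, 12.81 and 12.95. ITGB5 (12.34), ITGAV (10.15), ITGA5 (9.58), ITGA2 (9.24) and ITGA6 (8.24) followed. ITGB3, ITGB6 and ITGB8, other partners of ITGAV, were not detected, nor was ITGA4.

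Among matrix proteases and their inhibitors, all 4 TIMP genes and 4 of the metalloproteinase genes were detected. TIMP1 read 13.19, 13.25 and 13.34 and TIMP2 12.68, 12.99 and 12.90. Of the metalloproteinases MMP11 (6.77), MMP9 (6.46), MMP14 (5.74) and MMP1 (5.28) were detected, and MMP2, MMP3, MMP7 and MMP13 were not. MMP1, an interstitial collagenase, read 5.41, 5.33 and 5.08 with detection p-values of 0.0263, 0.0303 and 0.0448, close to the threshold. The list gave 8 of 26 detected (30.8%), and 5 at a threshold of 0.01.

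Of the classical cadherins only CDH7, at 5.61, was detected out of 17, with CDH1, CDH2, CDH9, CDH11 and CDH24 mixed. Without Luc replicate 1, 2 cadherins were detected, and at a threshold of 0.01 there were 0. Claudins were detected for 7 of 21 (33.3%), namely CLDN1, CLDN12 (9.21), CLDN23 (8.92), CLDN7 (7.88), CLDN15, CLDN14 and CLDN20. HOX genes, which set position along the body axis, were detected for 8 of 29, from HOXD1 at 8.21 to HOXB7 at 5.47, and for 5 at a threshold of 0.01.

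Secreted immune signals came from few genes. Interleukins and interferons were detected for 10 of 35 genes (28.6%), with IL18 at 12.64, 12.65 and 12.61 and the neutrophil attractant CXCL8 at 12.30, 12.23 and 12.23. IL11, IL6, IL24 and IL32 were detected between 7.65 and 9.30. IFNB1, IFNA1, IFNA2 and IFNG were not detected. Chemokines were detected for 5 of 34 (14.7%), CXCL8, CXCL2, CX3CL1, CCL5 and CXCL16, whereas CXCL12, CXCL10 and CCL2 were not.

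Interferon-stimulated genes were detected almost throughout, in 25 of 27 (92.6%). Of the interferon genes, IFNB1, IFNA1, IFNA2 and IFNG were not detected, as given above, but IFNA8, which is in no list, was detected at 7.32. IFITM2 averaged 13.08 ± 0.12 (SD, n = 3), and IFITM3, which blocks virus entry, read 13.02, 12.93 and 12.84. ISG15, a ubiquitin-like modifier, read 9.43, 9.33 and 9.36 and MX1, an antiviral GTPase, 8.32, 8.45 and 8.13. The list's detected members ran down to OAS1 at 5.52, and MX2 and RSAD2 were not detected. Since every control array came from transfected cells, a response to transfection cannot be told apart from the level of the line itself.

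Sensors of foreign RNA and DNA were detected for 16 of 26 genes (61.5%). STING1 (10.12), TBK1 (9.47), EIF2AK2 (8.98), IFIH1 (7.43), RIGI (7.13) and CGAS (6.82), all of the cytoplasm, passed. The endosomal receptors TLR7, TLR8 and TLR9 were not detected, and TLR3 was mixed (4.99, 5.71 and 4.65). The siRNA machinery was detected for 11 of 13 genes (84.6%), with AGO2, the slicing Argonaute, at 9.15, 9.69 and 9.66 and DICER1 at 9.16, 9.45 and 9.68. AGO4 and TNRC6C were mixed.

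Antigen presentation by MHC class I was detected in 14 of 15 genes (93.3%). B2M read 13.72, 13.63 and 13.71, HLA-B 13.60, 13.24 and 13.55, and the peptide transporter TAP1 averaged 12.42. HLA-C read 6.40, 6.56 and 6.08 on its brighter probe, and its other probe was not detected. HLA genes are near-identical to each other and vary between people, so probe signals may be shared or lost. Of MHC class II genes 6 of 11 (54.5%) were detected, with CD74, the invariant chain, at 11.31, 11.56 and 11.91 and HLA-DRA at 11.06, 11.14 and 11.08. CIITA, the master regulator of class II, was not detected (5.13, 4.54 and 4.63). Among checkpoint and surface ligands NT5E (11.48), CD47 (10.57) and MICB (10.48) were the brightest, and CD274, encoding PD-L1, was just above background at 5.34, 5.26 and 5.12.

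Cell cycle genes were detected in 18 of 20 cases. CCND1 read 13.37, 13.36 and 13.40, and its kinases CDK4 (11.46) and CDK6 (11.30) were detected, as was RB1 (8.27). CCNE2 and E2F1 were not detected. Of the CDK inhibitors 6 of 7 passed, led by CDKN1A at 10.55, 10.76 and 10.69 and CDKN1B at 9.31.

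CDKN2A, which encodes the CDK4 and CDK6 inhibitor p16, was not detected on any of its 3 probes, and its brightest read 4.50, 4.88 and 4.63. In RefSeq gene order on chromosome 9, its neighbours IFNE and MTAP on one side and CDKN2B-AS1 on the other were not detected either, with MTAP, a ubiquitous enzyme of methionine salvage, at 4.55, 4.47 and 4.46. CDKN2B, next in order, was detected at 5.65, 5.61 and 5.24 on 1 of 3 probes, and DMRTA1 and ELAVL2 beyond it were not. The first detected gene beyond CDKN2B was TUSC1 at 6.92, and on the side of MTAP it was IFNA8 at 7.32.

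Gene order showed other runs of genes in the same state over the 18746 genes placed. The longest run of undetected genes held 17, from OR52A1 to OR52D1 on chromosome 11, and was made of olfactory receptor genes with the beta-globin genes HBB, HBD, HBG1, HBG2 and HBE1 between them. A run of 14 on chromosome 21 was of keratin-associated protein genes of hair. The longest runs of detected genes held 15, one of them from CDK2 to NABP2 on chromosome 12 with RPS26, ERBB3 and RPL41. Runs of some length arise in any gene order when 47.8% of genes are detected and 36.7% are not. Whether these runs, or the stretch at CDKN2A, are longer than that was not tested. By chromosome the detected share ran from 39.7% on X to 52.5% on chromosome 14.

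Most genes of glycolysis and glucose transport were detected, and several tissue-specific forms were not. Of glycolysis and glucose transport genes 20 of 28 (71.4%) were detected, with GAPDH at 14.49, ENO1 at 14.26 and LDHA at 13.94. The transporters SLC2A3 (12.63) and SLC2A1 (12.20) were detected, and SLC2A2 of liver and SLC2A4 of muscle and fat were not. The testis forms GAPDHS, PGK2 and LDHC and the muscle form PGAM2 were not detected. ENO2, an enolase listed as a neuroendocrine marker, was detected at 8.49.

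Survival and growth genes showed a bright BCL2L1, at 12.98, 13.29 and 13.27, with MCL1 (9.06), BAX (10.49) and BCL2 (7.76) among 12 of 16 BCL2 family genes detected. MYC read 12.39, 12.57 and 12.60, and MYCN, MYCL and TERT were not detected.

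In the Wnt pathway few ligands were detected, while receptors and transducers came near the 47.8% detected over all genes. Ligands were detected for 3 of 19 genes (15.8%), WNT5B (8.19), WNT3 (6.53) and WNT2B (5.72), and for 5 without Luc replicate 2. Receptors and transducers were detected for 16 of 35 (45.7%), including LRP5 (10.52), FZD2 (10.11) and CTNNB1, beta-catenin, at 8.70, 9.19 and 9.21. The secreted antagonist DKK1 read 12.19, 12.43 and 12.42, while AXIN2 and LGR5, textbook targets of the pathway, were not detected. APC was not detected on its probe.

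Hippo pathway genes were detected in 13 of 22 cases (59.1%). The YAP targets CCN1, at 13.34, 13.34 and 13.74, and CCN2, at 13.08, 13.12 and 13.43, were highest on Luc replicate 3 in both cases. YAP1 itself averaged 10.31 ± 0.18 (SD, n = 3) and its relative WWTR1 was not detected (5.19, 4.65 and 5.04). Notch genes were detected for 12 of 21 (57.1%), with NOTCH1 at 8.72, NOTCH2 at 7.51 and JAG1 at 7.95, and NOTCH3, NOTCH4 and DLL4 not detected. Of 10 Hedgehog genes GLI1 (6.33), GLI3 (6.02) and PTCH1 (5.71) were detected, and SMO, the signal transducer, was not.

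Genes linked to spread of breast cancer to lung and bone were detected for 10 of 21 (47.6%), about the share of all genes. TNC, the matrix protein tenascin C, read 9.55, 9.16 and 9.43, LOX, a collagen cross-linking enzyme, 9.86, 9.96 and 9.98, and ID1 averaged 9.12 ± 0.17 (SD, n = 3). VCAM1, SPARC, SPP1 and MMP2 were not detected. The surface pattern used for breast stem-like cells, CD44 without CD24, was read as CD44 at 13.27 and CD24 as mixed, at 5.75, 4.72 and 4.55, where Luc replicate 1 alone passed (p of 0.0105). ALDH1A1 and ALDH1A3 were mixed and PROM1 was not detected.

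Of 17 lysine demethylase genes 9 (52.9%) were detected, near the 47.8% of all genes. KDM5B, a relative of KDM5A, averaged 10.08 ± 0.08 (SD, n = 3), and its other probe was not detected. KDM1A, which acts on mono- and dimethylated lysine 4, read 9.98, 10.04 and 10.08. KDM5C was mixed (4.74, 4.84 and 5.24) and KDM6B was not detected. KDM5A itself was not analysed here. Among drug efflux pumps ABCC3 (10.79) and ABCC4 (9.33) were detected, while ABCB1 and ABCG2 were not.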

How the data were processed

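RNA was extracted with a column kit, amplified to biotin-labelled cRNA and hybridised to bead arrays, per the labels. Per the file headers, the table of deposited intensities is not normalized, and its lowest values show that no background was subtracted. A detection p-value stands in the deposited table for each intensity. The authors' deposited log2 values have the same distribution on every array and served as an alternative. The submitters' processing notes name lumi, and the sources used here do not give how it was run.

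The 3 control arrays alone were corrected and quantile-normalized with neqc (limma 3.58.1, R 4.3.3, offset 16), and the rest was computed in Python 3.11.15. Of 48799 probes, 28094 had 1 symbol (28055 updated through RefSeq, 39 kept), 13 had several and 20692 had none. A gene's signal is that of its probe with the highest mean. With 1 group there is no test, and values are given with the SD between arrays. The detection step was also run on simulated data in which probes and negative controls shared the same background. That run cannot show how real probes that bind poorly, or bind other transcripts, are called.

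The members and gene lists were chosen with earlier results of these data known. Named were the 25 highest genes, up to 5 detected and 6 undetected genes per list, a set of breast cancer genes, the 10 of largest SD, genes at the threshold and genes whose probes disagree; genes outside this rule were named after their values were seen. Predicted symbols were passed over in the rankings. The promoter set (protein-coding genes outside chromosomes 8 and Y, averaged over listed starts), its 1-start alternative and the pyrimidine feature were chosen after seeing the data. Promoter sequences are from RefSeq, GRCh38.p14. Alternatives were the detection threshold, each array left out, the probe rule and the normalization.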

Additional observations from a re-analysis of the deposited data

How the results depend on the processing

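The count of detected genes was 9017 and stayed between 8112 (threshold 0.01) and 9440 (threshold 0.1), with 9215 to 9409 when 1 array was left out, 9005 by the brightest probe alone and 10698 with probes without a symbol counted. The count of undetected genes, 6927, was 9472 at 0.01, 5485 at 0.1, 7452 to 7852 with 1 array left out and 22176 when probes without a symbol were counted, since most of these were not detected. Of the 25 highest genes, 25 were shared with the uncorrected intensities and with the deposited log2 values, 23 to 25 with 1 array left out, and 16 when a gene was the mean of its detected probes. The median SD, 0.162, was 0.141 with an offset of 50, 0.214 without normalization, 0.122 to 0.149 with 1 array left out and 0.086 in the deposited values (the cause was not tested). Of the 54 lists, 6 had a detected count lower by over 1.5 times at a threshold of 0.01, 4 had one higher by as much without Luc replicate 1, and 1 without replicate 2. MMP1 was not detected at 0.01, nor were CDH1, CD24 and GATA3, and GATA3 was detected at 0.1. Without Luc replicate 1, CD24 and GATA3 were not detected. The CpG medians were 0.838 and 0.522 at 0.01. No paired analysis was possible because 1 group was described and no result comes from a test. Within the signal of the negative controls, no level can be read.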
